A study of Mus musculus with 20 samples.

Results

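Ribosomal protein genes of the cytosol were followed in mouse blastocysts after the separate steps of embryo biopsy. Members were taken by gene symbol: Rpl or Rps followed by a number, together with Rplp0, Rplp1, Rplp2 and Rpsa, without the Rps6k kinases and without pseudogene symbols. The rule used names and no measured value. Of 75 such symbols on the array, 46 had a probe set of their own, 24 for the large subunit and 22 for the small subunit, out of 18193 genes with such a probe set. Each gene was represented by its probe set with the highest mean over the 20 arrays. Of the 46, 44 passed the detection filter and were tested, 23 large and 21 small subunit genes among 12025 tested genes. Rpl3l and Rps16 were called Present on 0 arrays and were not tested. The other 29 symbols, Rpl3, Rpl5, Rpl10, Rpl26, Rpl35a, Rpl36a, Rpl36al and Rplp1 among them, occurred only on probe sets that several genes share, and no value was assigned to them.

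RNA was measured on Affymetrix MOE430 2.0 arrays in 20 pools, each of 20 CF1 blastocysts collected 96 h after hCG. There were 5 groups of 4 pools, numbered 2 to 5 in each group. Untreated embryos received no handling step at the 8-cell stage. CMF embryos were kept in medium free of calcium and magnesium, which loosens the contacts between blastomeres. Acid embryos had the zona pellucida, the coat of the embryo, exposed to acid Tyrode's solution. CMF_acid embryos received both exposures. Biopsy embryos received both and lost 1 blastomere. All groups were then grown to the blastocyst stage, and the RNA of every pool went through 2 rounds of linear amplification. Nothing in the labels says that pools of a group came from separate matings or days, so each p-value reflects how these particular pools scattered, which may be technical.

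Ribosomal proteins clothe the RNA of the large and small ribosomal subunits and are made in matched amounts in growing cells. Most of their mRNAs begin with a C followed by a run of pyrimidines, the terminal oligopyrimidine tract, through which mTOR and the RNA-binding protein Larp1 control their translation. In the mouse embryo new ribosomes are built from the cleavage stages onwards.

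The starts of some members are shown because the tract is known from many mRNAs of the family and the printed letters differ between members. Each window runs 5′ to 3′ on the transcribed strand, from 10 bases before to 20 bases after the annotated start, from RefSeq on GRCm38.p6. Capitals mark a run of at least 5 C or T letters that begins with C within 5 bases of the start. The first 6 genes hold such a run and the last 3 do not.
Rpl35: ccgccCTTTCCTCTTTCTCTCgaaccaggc
Rpl27a: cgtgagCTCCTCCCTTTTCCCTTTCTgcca
Rps9: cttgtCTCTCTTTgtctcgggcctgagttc
Rps6: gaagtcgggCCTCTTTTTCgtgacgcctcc
Rplp2: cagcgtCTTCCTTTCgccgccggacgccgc
Rpl38: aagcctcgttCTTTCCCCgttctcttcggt
Rpl4: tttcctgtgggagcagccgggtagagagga
Rpsa: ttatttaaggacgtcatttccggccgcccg
Rps28: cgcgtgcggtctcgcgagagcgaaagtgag

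The windows are chr2:39005112-39005141 on the minus strand for Rpl35, chr7:109519185-109519214 on the plus strand for Rpl27a and chr7:3704031-3704060 on the plus strand for Rps9. Those of Rps6 and Rplp2 are chr4:86857348-86857377 on the minus strand and chr7:141447641-141447670 on the plus strand. Those of Rpl38, Rpl4 and Rpsa lie on the plus strand at chr11:114668570-114668599, chr9:64173377-64173406 and chr9:120127756-120127785. That of Rps28 is chr17:33824543-33824572 on the minus strand. The longest of the printed runs has 20 letters, in Rpl27a, which encodes a protein of the large subunit.

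Of the 46 members, 40 had a start in the RefSeq table, and 19 of these (47.5%) held such a run, against 18.5% of the 27018 genes in that table. The motif CTTTC stood in the same window of 11 of the 40 (27.5%), against 3.66% of all genes, and can lie inside a longer run. Its reverse complement GAAAG stood in 1 member (2.5%), Rps28, against 3.54% of all genes. A run was found in 10 of 22 large subunit genes (45.5%) and 9 of 18 small subunit genes (50%). A window without a run says only that the letters are not there, since the annotated start can differ from the start used in embryos. The 19 tested members with a run and the 19 without had median differences between biopsy and untreated embryos of -0.032 and -0.036 (log2), with 16 lower in each set.

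Signals of most members lay near the top of the array's scale. The median over the 44 tested members of the mean log2 intensity was 15.41, with a range of 2.64 to 16.93, against a median of 9.16 over all tested genes. It was 15.54 for large and 15.35 for small subunit genes. Signal also depends on the probes of a set, so these values describe the probe sets and give no order of the genes.

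Of the family's named groups, the members with a probe set of their own were nearly all detected. Rplp1, Rpl5 and Rpl35a had no such probe set. For the stalk of the large subunit, which recruits the translation factors, the untreated means were 16.13 ± 0.029 for Rplp0 and 16.37 ± 0.043 for Rplp2 (log2 ± SD, n = 4). Rpl11, which joins the 5S RNA and can bind Mdm2, stood at 15.20 ± 0.049, and Rps6, the substrate of the S6 kinases, at 11.54 ± 0.089. Rps19, mutated in Diamond-Blackfan anaemia, stood at 15.13 ± 0.025, and Rps14, lost in the human 5q deletion, at 15.06 ± 0.036. Rpl38, mutated in the Tail-short mouse, stood at 15.10 ± 0.030. Rpl41, a very short peptide of the subunit interface, stood at 14.87 ± 0.063.

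Several members have paralogs, and both copies of some pairs had a probe set of their own. Rpl39, at the exit tunnel for the nascent chain, was called Present on 18 arrays with a mean of 7.59, and Rpl39l, its paralog known from testis, was Present on 20 with 14.44. Rps27l, a paralog of Rps27 that p53 can induce, was Present on 20 arrays with 14.85. Rps27 itself was Present on 20 arrays with a mean of only 2.64, and Rps16, whose tail reaches the peptidyl site of the ribosome, had 1.91 and no Present call. Probe sets that list Rps27, Rps16 or Rpl39 together with other symbols reached 16.17, 16.96 and 16.17, and which transcripts these shared probe sets measured was not tested. Rps4x, on the X chromosome, and Rps4l were both Present on 20 arrays, at 15.89 and 13.52. Rpl3l, a striated muscle paralog of Rpl3, had 2.83 and no Present call. Rpl12, at the base of the stalk and among the 5 members of lowest untreated signal, was Present on 20 arrays with a mean of 10.19. It read 10.24, 10.16, 10.23 and 10.19 in untreated pools. Shared probe sets that list Rpl12 reached 15.55. Those that list Rps6 reached 17.32, against a mean of 11.43 for the probe set that represents Rps6. Which transcripts these sets measured was not tested either.

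Ribosomal proteins that carry other names were detected as well. Fau, which encodes a ubiquitin-like protein fused to a small subunit protein, had a mean of 15.22, Rpl22l1 of 13.55 and Rpl7l1 of 12.75, each Present on 20 arrays. In biopsy against untreated embryos these 3 genes had a median difference of -0.052 (log2), with Fau at -0.074 ± 0.061 and Rpl22l1 at 0.057 ± 0.10 (SE).

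Replicate pools differed little in these genes. The SD within groups had a median of 0.0746 (log2) over the 44 members, with a range of 0.0334 to 0.400, against 0.199 over all tested genes. Strongly hybridising genes had less spread on these arrays. Among genes with a mean log2 of 14 or more, the median SD was 0.0616 for 35 members and 0.107 for all 584 genes of that level. In the intensities of the Affymetrix software the corresponding medians were 0.151 and 0.156, so the narrow spread of the members at matched signal was not seen in that summary. The median was 0.0758 for large and 0.0681 for small subunit genes.

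The 3 members with the smallest spread were Rps20, Rps27l and Rps29. Rps29, a zinc-binding protein of the small subunit head, read 16.93, 16.94, 16.92 and 16.97 in untreated pools and 16.93, 16.89, 16.84 and 16.97 in biopsy pools (log2, replicates 2 to 5). Rps27l read 14.86, 14.83, 14.93 and 14.88 in untreated pools and 14.83, 14.85, 14.84 and 14.83 in biopsy pools. The groups overlapped for both genes.

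The 5 members with the largest spread were Rpl37, Rps25, Rpl27a, Rps9 and Rpl14. The probe sets of Rpl37, Rps25, Rpl27a and Rpl14 had means of 11.65, 12.96, 11.80 and 12.08. Shared probe sets that list these genes, in the same order, reached 16.76, 15.39, 16.00 and 15.91. Their SDs within groups were 0.11, 0.050, 0.059 and 0.057. Which transcripts the shared sets measured was not tested, so the large spread describes the genes' own probe sets. Rpl37, a zinc-binding protein of the large subunit, read 11.06, 12.42, 11.86 and 12.90 in CMF_acid pools. It read 11.51, 11.48, 11.48 and 12.10 in untreated and 11.57, 11.61, 11.57 and 11.50 in biopsy pools. The CMF_acid pools thus spanned the whole range of the gene, with the lowest and the highest array of all 20. Rps25, used in internal initiation of translation, read 12.98, 12.52, 12.98 and 13.84 in CMF_acid pools, against 12.78, 13.00, 13.08 and 13.25 in untreated pools. Replicate 5 of CMF_acid was the highest array of all 20 for this gene too. Rpl14 ranged from 11.47 in CMF_acid replicate 2 to 12.40 in CMF_acid replicates 3 and 5, and its groups overlapped.

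**Figure D1:**
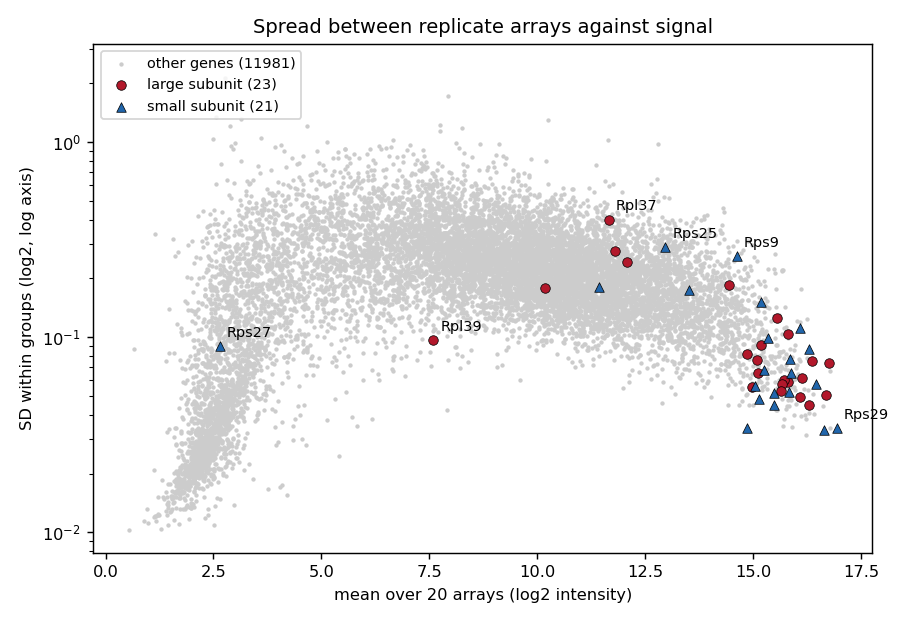
The SD within groups (log2, logarithmic axis) is plotted against the mean over 20 arrays (log2 intensity) for 12025 tested genes, with 23 large subunit genes as red circles and 21 small subunit genes as blue triangles. Most members lie at the right edge, above a mean of 14, with a median SD of 0.0616 there, while Rpl37, Rps25 and Rps9 lie higher.

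Single pools stood out across the family. Biopsy replicate 4 was the lowest of the 20 arrays for 17 of the 44 members, against 5.64% of all genes, and the median deviation of the members from their own means was -0.097 (log2). CMF_acid replicate 3 was the highest array for 20 members, against 8.33% of all genes, with a median deviation of 0.095. The 549 other genes with a mean log2 of 14 or more had median deviations of -0.022 and -0.013 on these arrays.

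Other probe sets and the software signal showed the low pool but not in each case the high one. In 75 probe sets with a mean log2 of 14 or more that list a ribosomal protein symbol among several, a set chosen after the data were seen, biopsy replicate 4 was lowest for 38 and CMF_acid replicate 3 highest for 30. Among the 549 other genes of that level the shares were 8.93% and 6.01%. CMF_acid replicate 5 was also highest for 30 of the 75 probe sets, and lowest for 12, against 26.6% and 36.6% of the 549 genes. In the software signal, biopsy replicate 4 was lowest for 33 of the 44 members, against 6.73% of all genes and 42.3% of those 549 genes. CMF_acid replicate 3 was highest there for 1 member, against 5.22% of all genes. Biopsy replicate 4 had 50.01% of probe sets called Present and an actin 3′ to 5′ signal ratio of 1.90, and CMF_acid replicate 3 had 50.9%, the highest share of the 20 arrays, and 2.36. The ranges over all arrays were 44.3% to 50.9% and 1.51 to 4.22. Whether a property of these pools moved the family was not tested.

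CMF_acid replicate 5 stood apart over the whole array. It had the lowest share of Present calls, 44.3%, the highest actin ratio, 4.22, and a mean correlation with the other arrays of 0.985. It was the highest array for 13 and the lowest for 6 of the 44 members, against 26.6% and 29.6% of all genes, so results that turn on this pool are also given without it.

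**Figure D2:**
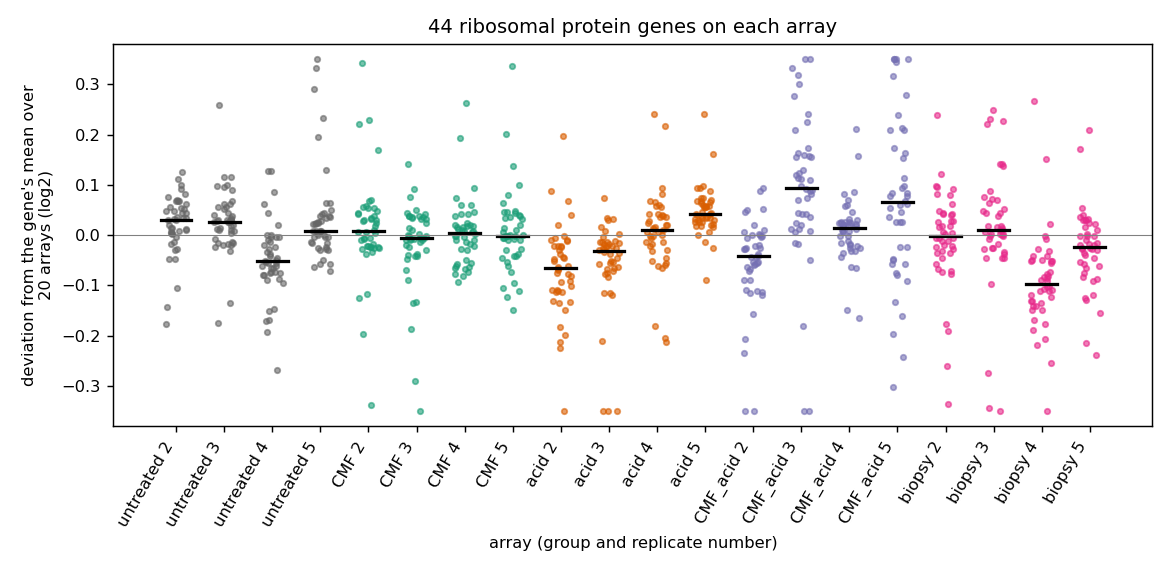
Each point is 1 of 44 ribosomal protein genes on 1 array, as its deviation from its own mean over 20 arrays (log2), with arrays in group order and black bars at the median of the members. The medians run from -0.097 on biopsy replicate 4 to 0.095 on CMF_acid replicate 3, and 18 of the 880 points lie beyond 0.35 in either direction and are drawn at the edge.

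Large and small subunit genes moved together from pool to pool. The median deviation of the large subunit genes minus that of the small subunit genes lay between -0.026 and 0.030 on every array, with an SD within groups of 0.0171. The median over all members had an SD within groups of 0.0439. Across the 20 arrays, after removal of group means, the median Pearson correlation over 946 pairs of members was 0.339, and it was 0.406 without CMF_acid replicate 5. It was 0.370 among large, 0.317 among small and 0.345 between large and small subunit genes. The arrays share their normalization, so these correlations are descriptions.

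Rpl11 and Rps18, which lies in the head of the small subunit, were the closest pair, with r = 0.922, followed by Rpl38 and Rps26 with r = 0.916. Rps25 ran opposite to Rpl11, with r = -0.866. The values of these pairs include CMF_acid replicate 5, where Rps25 and Rpl11 deviated from their own means by 0.88 and -0.20 (log2). On CMF_acid replicate 3 Rps25 and Rpl11 deviated by -0.43 and 0.21. Rps6, Rpl4 and Rps27l had median correlations of -0.18, -0.11 and -0.024 with the other members. Different probe sets of a gene did not always move together: the median correlation between them was 0.990 for Rps15, 0.933 for Rps28 and 0.909 for Rpl35, but -0.080 for Rps9 and -0.20 for Rps3.

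No ribosomal protein gene passed the test in any comparison. By limma with Benjamini-Hochberg adjustment over 25553 probe sets, 0 members and 0 probe sets (0%) were called in each treatment against untreated, in biopsy against CMF_acid and in the CMF by acid interaction. The moderated F test over the 5 groups also called 0, with a lowest adjusted p of 0.974, while 462 probe sets and 0 members had an unadjusted p under 0.05. No member had all 4 arrays of a group above or below all 4 arrays of the other in any of the 5 comparisons between groups, as did 0.457% of all genes below and 1.90% above in biopsy against untreated, and 0.715% and 0.532% in CMF. These shares were 0.516% and 0.333% in acid, 0.200% and 0.449% in CMF_acid, and 0.773% and 1.72% in biopsy against CMF_acid. The 4 comparisons with untreated share the same untreated arrays.

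The 95% interval of a difference between 2 groups reached a median of 0.12 (log2) to either side, and that of the interaction 0.17. The interval lay within 1.3-fold in either direction for 39 of 44 members in biopsy against untreated, 40 in CMF, 39 in acid, 38 in CMF_acid, 39 in biopsy against CMF_acid and 32 in the interaction. Rpl27a, Rpl37, Rps25 and Rps9 were outside it in all 6. In the software signal the SD within groups had a median of 0.156 over the members, against 0.0746 in the values behind these intervals. These intervals are for 1 gene at a time and bound the differences of the probe sets, not of protein.

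In biopsy against untreated embryos, 36 of 44 members had a lower mean after biopsy, against 40.9% of all genes, although the software signal gave 19 lower. The median difference was -0.033 (log2), against 0.0083 over all genes. In the software signal it was 0.0050 against 0.093, which leaves -0.088 relative to all genes, compared with -0.041 in the main values. Large subunit genes were lower in 19 of 23 cases, with a median of -0.025, and small subunit genes in 17 of 21, with a median of -0.037. Without biopsy replicate 4 the count fell to 22 of 44 and the median was 0.00038, against 0.011 over all genes. With each array left out in turn, the members' median ran from -0.054 to 0.00038. Untreated replicate 4 was the lowest untreated pool, with a median deviation of the members of -0.052. At an unadjusted p under 0.05 there were 0 members and 2.09% of all probe sets.

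Rpsa, the small subunit protein also known as the laminin receptor, had the lowest p among the members in this comparison. It read 15.30, 15.36, 15.18 and 15.25 in untreated and 15.19, 15.26, 15.04 and 15.25 in biopsy pools. The groups overlapped, and the lowest value was biopsy replicate 4. Replicate 4 was the lowest of the untreated pools as well. The difference was -0.087 ± 0.052 (SE, n = 4 per group; limma adjusted p = 0.99999). With each array left out in turn it ran from -0.12 to -0.038, the last without biopsy replicate 4.

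Rpl4, whose loop lines the exit tunnel, read 16.33, 16.34, 16.28 and 16.22 in untreated and 16.25, 16.25, 16.18 and 16.24 in biopsy pools. Here untreated replicate 5 lay within the biopsy values and the other untreated pools above them. The difference was -0.062 ± 0.039 (limma adjusted p = 0.99999). On the higher side, Rplp2 of the stalk differed by 0.033 ± 0.057 and Rpl8, near the peptidyl transferase centre, by 0.026 ± 0.050, both well inside their errors.

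**Figure D3:**
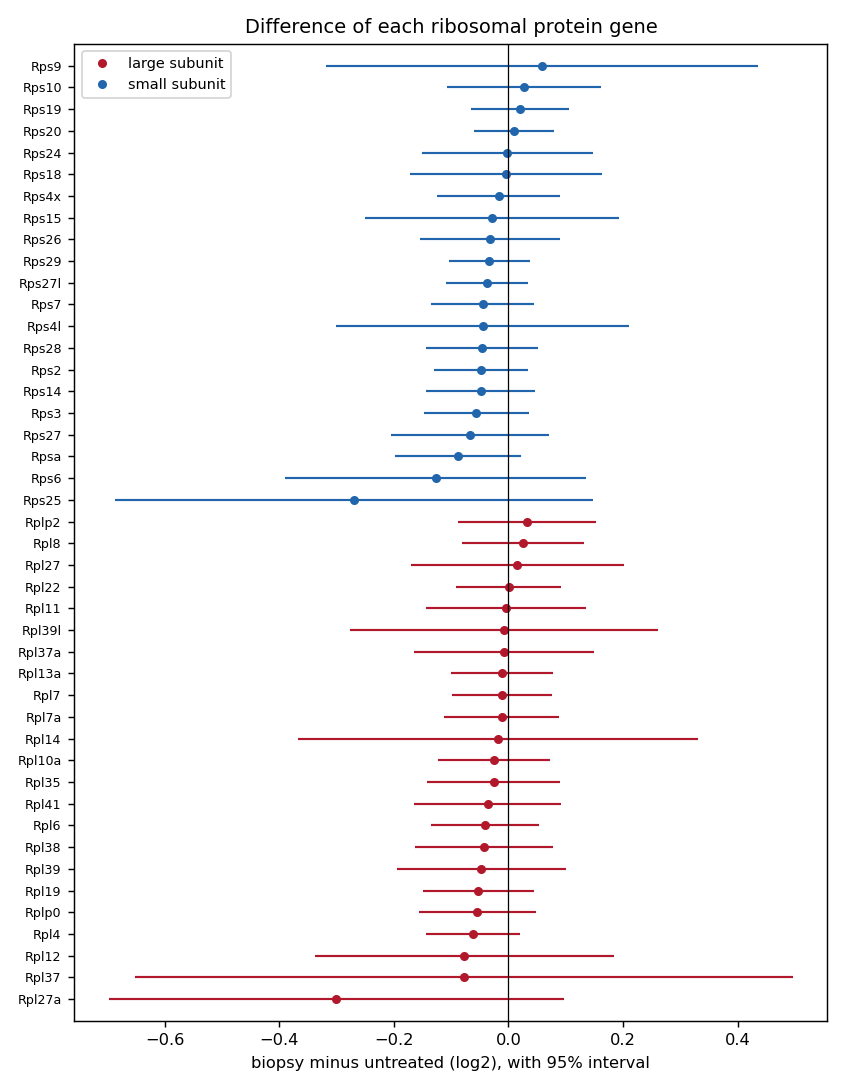
The difference between biopsy and untreated embryos (log2, n = 4 each) is shown for 23 large (red) and 21 small (blue) subunit genes, with lines for the 95% interval of each. Points of 36 genes lie left of 0, every interval includes 0, and Rpl27a has the lowest difference, -0.30.

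After CMF medium alone about as many members were lower as higher. Compared with untreated embryos, 21 of 44 were lower, against 46.7% of all genes, with a median of 0.00081 (log2), against 0.0079 over all genes. Without untreated replicate 4, 31 were lower and the median was -0.019. In the software signal 4 were lower and the median was 0.096, against 0.086 over all genes. At an unadjusted p under 0.05 there was 1 member, Rps9, and 1.01% of all probe sets.

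Rps9, a small subunit protein at the mRNA entry channel, read 14.74, 14.60, 14.61 and 14.95 in untreated and 14.42, 13.64, 14.60 and 14.66 in CMF pools. CMF replicate 3 was the lowest of all 20 arrays. CMF replicates 2 and 4 also lay below all untreated pools, replicate 4 narrowly (14.598 against 14.601). CMF replicate 5 lay within the untreated range. The difference was -0.40 ± 0.18 (SE; limma adjusted p = 0.99997), and -0.17 without replicate 3. The other probe sets of the gene differed by 0.095 and -0.052. Rps7, needed for the processing of ribosomal RNA, and Rpl6 differed by 0.043 ± 0.043 and 0.045 ± 0.045, and Rps27l by -0.036 ± 0.033.

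Acid alone gave small differences, mostly on the lower side. Compared with untreated embryos, 32 of 44 members were lower, against 50.6% of all genes, and 28 in the software signal. The median was -0.013 (log2), against -0.0012 over all genes. Without acid replicate 2 the count was 20 and the median 0.0068, without acid replicate 5 the count was 39, and without untreated replicate 4 it was 42. At an unadjusted p under 0.05 there were 0 members and 1.16% of all probe sets.

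Rps19 had the lowest p, with 15.10, 15.15, 15.12 and 15.15 in untreated and 14.98, 15.05, 15.10 and 15.15 in acid pools. Acid replicate 5 lay within the untreated range. The other acid pools lay below all untreated pools, replicate 4 narrowly (15.095 against 15.097). The difference was -0.061 ± 0.041 (SE; limma adjusted p = 0.99995). Rps6 read 11.50, 11.46, 11.56 and 11.66 in untreated and 11.45, 11.01, 11.64 and 11.34 in acid pools, a difference of -0.18 ± 0.12, and -0.065 without acid replicate 3. Rpl13a and Rpl10a, on the higher side, differed by 0.018 ± 0.042 and 0.015 ± 0.046.

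In embryos with both exposures the members were on balance slightly higher in the main values, with 29 of 44 above untreated and a median of 0.020 (log2), but not in the software signal, with 21 above and a median of -0.0041. All genes had medians of 0.0094 and -0.063 in these values, with 47.5% lower in the main values. The members thus lay above all genes by 0.010 and 0.059. Per pool, the software signal gave a median deviation of the members minus that of all genes. This was -0.14, 0.073, -0.011 and 0.27 in CMF_acid pools (replicates 2 to 5), highest in replicate 5. The untreated pools had 0.084, -0.014, -0.13 and 0.042. In the main values without CMF_acid replicate 3, 22 of 44 were lower and the members' median was -2.5e-06. Without CMF_acid replicate 5 it was 0.016, with 13 lower, and lay above that of all genes by 0.0032. Without CMF_acid replicate 2 it was 0.049, with 33 above untreated and 5 members at an unadjusted p under 0.05. With all arrays, at an unadjusted p under 0.05 there were 0 members and 2.67% of all probe sets.

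Rps15, a protein near the decoding site, read 15.25, 15.31, 15.00 and 15.13 in untreated and 15.08, 15.62, 15.12 and 15.53 in CMF_acid pools. Replicates 3 and 5 of CMF_acid were above all untreated pools and the other two within their range. The difference was 0.17 ± 0.10 (SE; limma adjusted p = 0.834), 0.075 without CMF_acid replicate 3 and 0.10 without replicate 5. Its second probe set differed by 0.13.

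Rpl39 differed by 0.12 ± 0.069, and by 0.036 without CMF_acid replicate 5, its highest array. Rps6 differed by -0.19 ± 0.12, and by -0.084 without CMF_acid replicate 3, and Rps18 by -0.071 ± 0.079. The last turned to 0.015 without CMF_acid replicate 5.

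Blastomere removal on top of both exposures was read from biopsy against CMF_acid. Of the 44 members, 33 were lower in biopsy pools, against 50.5% of all genes, with a median of -0.055 (log2), although the software signal gave 21 lower and a median of 0.0084. All genes had medians of -0.0029 and 0.15 in these values, so the members lay below all genes by 0.052 and 0.14. In the software signal the members' median deviation minus that of all genes was -0.11, 0.040, -0.28 and -0.011 in biopsy pools. It was -0.14, 0.073, -0.011 and 0.27 in CMF_acid pools (replicates 2 to 5). In the main values the members lay below all genes by 0.042 without CMF_acid replicate 5 and by 0.040 without biopsy replicate 4. Large subunit genes were lower in 18 of 23 cases and small subunit genes in 15 of 21. At an unadjusted p under 0.05 there were 5 members, all lower, against 7.36% of all probe sets in either direction. Without CMF_acid replicate 5 there were 0 such members, without biopsy replicate 4 also 0, and without CMF_acid replicate 2 there were 11.

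The 5 were Rpl27a, Rps27, Rpl39, Rpsa and Rpl10a, the last a protein of the mobile L1 stalk. Rpl27a read 11.74, 11.62, 11.87 and 12.68 in CMF_acid and 11.46, 11.46, 11.31 and 11.77 in biopsy pools. Biopsy replicate 5 overlapped the CMF_acid values. This probe set had a mean of 11.80, against 16.00 for the shared set that lists Rpl27a. The difference was -0.48 ± 0.19 (SE; limma adjusted p = 0.617), and -0.24 without CMF_acid replicate 5.

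Rps27 read 2.64, 2.77, 2.66 and 2.85 in CMF_acid and 2.64, 2.68, 2.39 and 2.60 in biopsy pools, close to the low end of the scale. The groups overlapped at 2.64 to 2.68. The difference was -0.16 ± 0.065 (limma adjusted p = 0.617), and the software signal gave 0.20. Rpl39, Rpsa and Rpl10a differed by -0.16 ± 0.069, -0.12 ± 0.052 and -0.099 ± 0.046. Without CMF_acid replicate 5, Rps27, Rpl39 and Rpl10a differed by -0.11, -0.083 and -0.061, and without biopsy replicate 4, Rps27 and Rpsa differed by -0.094 and -0.070. On the higher side stood Rps18 with 0.067 ± 0.079 and Rplp2 with 0.055 ± 0.057, which turned to -0.019 and -0.017 without CMF_acid replicate 5.

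**Figure D4:**
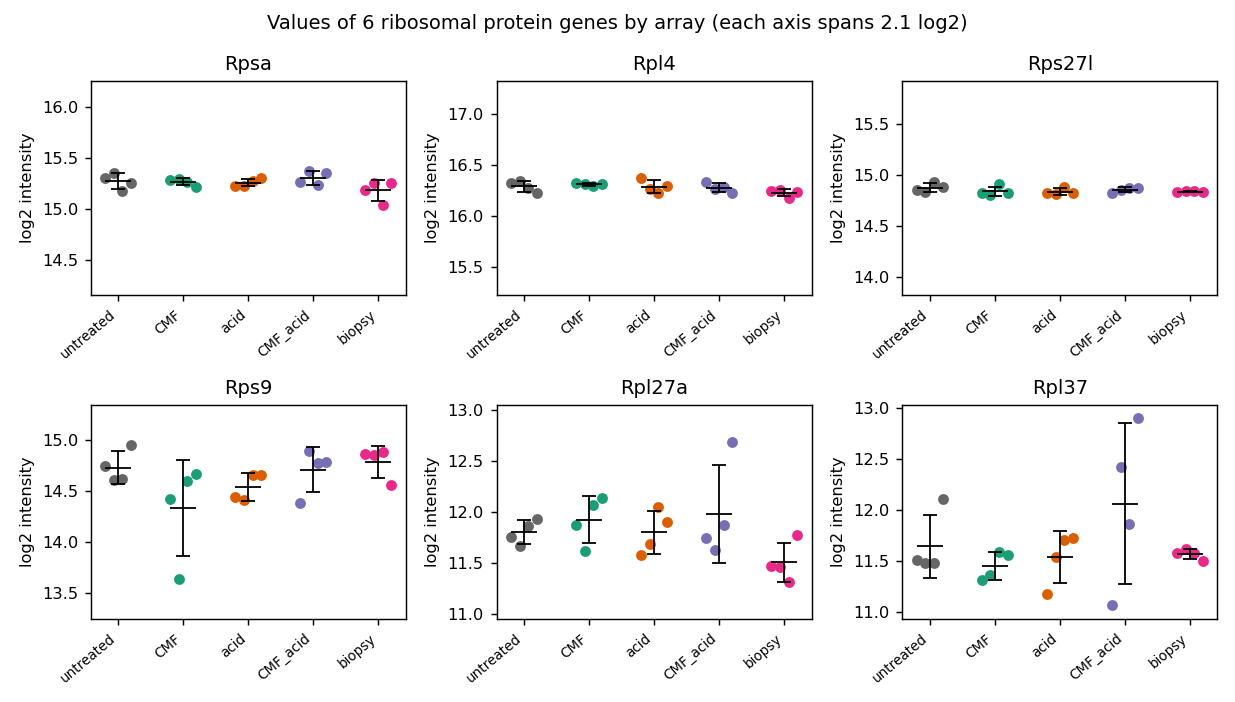
The log2 intensity of 6 ribosomal protein genes is shown for every pool, with black bars for the mean and SD of each group (n = 4) and an axis span of 2.1 in each panel. Rpsa, Rpl4 and Rps27l vary little, whereas single pools stand out for Rps9 (CMF replicate 3 at 13.64), Rpl27a (CMF_acid replicate 5 at 12.68) and Rpl37 (CMF_acid replicate 5 at 12.90).

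The interaction asked whether CMF medium acted differently with and without acid. It was positive for 29 of 44 members, with 15 below 0 against 53.2% of all genes, and had a median of 0.045 (log2), against -0.020 over all genes, but the software signal gave -0.089, against -0.18 over all genes. At an unadjusted p under 0.05 there was 1 member, Rps9, and 3.40% of all probe sets. The interaction of Rps9 was 0.57 ± 0.25 (limma adjusted p = 0.779), 0.34 without CMF replicate 3, and -0.29 and -0.16 in its other probe sets. Rpl39 had 0.21 ± 0.098, and Rpl7 and Rpl4 had -0.043 ± 0.058 and -0.030 ± 0.055. Without CMF_acid replicate 5, Rpl39 had 0.13, Rpl7 -0.0045 and Rpl4 -0.014. The members' median without that pool was 0.031, against 0.0023 over all genes, and 0 members had an unadjusted p under 0.05. Rpl4 had -0.0029 without acid replicate 2. Without CMF_acid replicate 3 the members' median was 0.0071, without CMF_acid replicate 2 there were 6 members at an unadjusted p under 0.05, and without untreated replicate 4 or acid replicate 5 the number below 0 was 8.

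Large and small subunit genes had medians close to each other. The median of the large minus that of the small subunit genes was 0.012 in biopsy against untreated, -0.00037 in CMF, -0.0011 in acid and 0.017 in CMF_acid. It was -0.028 in biopsy against CMF_acid and -0.0071 in the interaction. The value of -0.028 became -0.0014 without CMF_acid replicate 5.

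**Figure D5:**
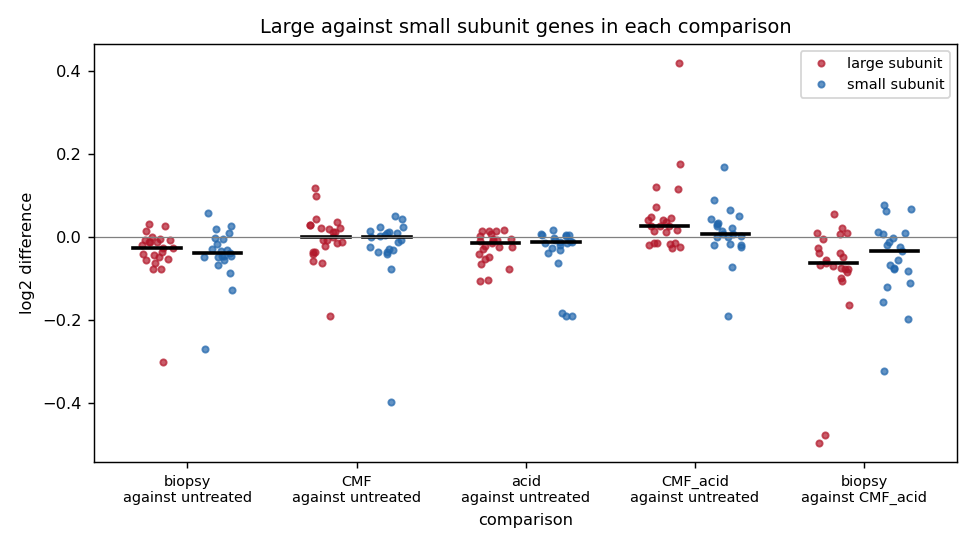
The log2 difference of each of 23 large (red) and 21 small (blue) subunit genes is shown in 5 comparisons, with black bars at the medians. The medians of the subunits differ by at most 0.028, and the points of both overlap in every comparison.

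Genes that work with the ribosomal proteins also had 0 calls. The translation factors, many of whose mRNAs carry the same tract, had 13 tested genes of 14 listed. In biopsy against untreated embryos 9 were lower and 4 higher, with a median of -0.012. Eef1a1, which brings aminoacyl-tRNA to the ribosome, differed by -0.068 ± 0.041 and the initiation factor subunit Eif3h by -0.081 ± 0.062 (SE). Ribosome biogenesis genes, which process ribosomal RNA and assemble the subunits, had 31 tested of 33, with 11 lower, 20 higher and a median of 0.025. Ddx21, an RNA helicase of the nucleolus, differed by 0.18 ± 0.097 and Nop10, of the box H/ACA particles, by -0.14 ± 0.094. Genes that control mRNAs with the tract, such as Mtor, had 14 tested of 17, with 5 lower, 9 higher and a median of 0.013. The RNA-binding protein Larp4 differed by 0.30 ± 0.19 and Eif4ebp2, a target of mTOR, by 0.11 ± 0.10. In CMF_acid against untreated embryos 22 of the 31 biogenesis genes were lower, with a median of -0.046, while 15 of the 44 ribosomal protein genes were lower. In biopsy against CMF_acid 24 of the 31 were higher, with a median of 0.094. Without CMF_acid replicate 5 these became 10 lower with a median of 0.016, and 16 higher with a median of 0.0018. The difference between the lists was not tested.

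The tissue label was checked by markers. All 6 inner cell mass genes, Pou5f1, Nanog and Sox2 among them, and 6 of 7 trophectoderm genes, Cdx2 and Krt8 among them, were Present on 20 arrays, while Elf5 was Present on 11. Of the cumulus and granulosa cell markers, Amhr2 was Present on 20 arrays at 9.45, Foxl2 on 8, Ptx3 on 2, and Fshr, Has2, Inha, Inhba and Tnfaip6 on 0. Of the primitive endoderm genes, Gata6, Dab2, Sox17, Pdgfra, Lrp2 and Cubn were Present on 20 arrays and Gata4 on 16. Blood and sperm markers were Present on 0 or 1 array, apart from Tnp1 on 5. In pools of whole embryos, fewer cells of a type and less RNA per cell cannot be told apart.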

How the data were processed

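Members and lists were chosen with earlier results of these data known. The main values were the authors' deposited intensity per probe set, made with GC-RMA in ArrayAssist Lite 3.4, per the series design text. That text also names GeneSpring 7.31 and Partek Genomics Suite 6.3 for later steps. Each array also has an intensity from the Affymetrix software, with a Present or Absent call and its p-value from the detection test, as the deposited tables give them per the file headers.

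Of 45101 probe sets, 64 controls were left out, and 25553 called Present on at least 3 arrays were tested, the filter of the series text. Probe sets with 1 gene symbol numbered 34958, with several 932, and 9211 were unnamed. Log2 intensities of all 20 arrays entered 1 fit of 5 group means (lmFit and eBayes, limma 3.58.1, R 4.3.3), two-sided, with Benjamini-Hochberg adjustment within each comparison and a threshold of 0.05. The code was checked on simulated data. Software signals were floored at 1 before log2. The number of arrays limits the precision.

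Genes named were the 5 highest and lowest of untreated signal, the 5 largest and 3 smallest spreads, 2 per direction of lowest p per comparison, and members fixed by role, where a probe set of their own existed. Other genes were named after their values were seen. Alternatives were the replicate block, the software signal, quantile normalization, 2 detection filters, the mean of a gene's probe sets, least squares without moderation and each array left out. Promoter windows came from RefSeq.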

Additional observations from a re-analysis of the deposited data

Results flagged for a closer look

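Named and tested members, the median of all members and the large minus small difference were looked at in each of the 5 groups. In 10 of these 180 sets of 4 arrays, 1 array lay far from the other 3, by a rule that marks about 1 in 20 sets by chance. Biopsy replicate 4 was low for Rpl38 (14.92, the others 15.09 to 15.12), Rpl7 (16.00, the others 16.09 to 16.11) and Rps28 (16.32, the others 16.45 to 16.46). Biopsy replicate 2 was high for Rpl35 (16.85, the others 16.70 to 16.72), and biopsy replicate 5 was low for Rps9 (14.55, the others 14.85 to 14.88). In untreated pools, replicate 5 was high for Rpl37 (12.10, the others 11.48 to 11.51) and replicate 4 was low for Rpl38 (15.05, the others 15.11 to 15.12). In CMF pools, replicate 5 was low for Rplp0 (16.08, the others 16.16 to 16.17), and replicate 4 was high for Rps14 (15.14, the others 15.03 to 15.05) and for Rps27l (14.91, the others 14.81 to 14.82).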

How the results depend on the processing

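Of the alternatives tried, none called a ribosomal protein gene. Between 0 and 1 probe sets were called when an array was left out, and 0 under every other alternative. With the replicate block, 0 probe sets were called and 900, 442, 491, 1085, 2440 and 1068 had an unadjusted p under 0.05 in biopsy, CMF, acid and CMF_acid against untreated, biopsy against CMF_acid and the interaction, against 535, 258, 296, 683, 1881 and 868 without it. Of the members 1, 1, 0, 0, 7 and 2 were under 0.05 with the block and 0, 1, 0, 0, 5 and 1 without it. Same-numbered pools had correlations of -0.092 to 0.40 in their deviations, 30 of 40 pairs over 0.1, and all 20 arrays correlated best with their own number, which is a hint from the data and not the design.

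The software signal moved the members' median to 0.096 in CMF, 0.0084 in biopsy against CMF_acid and -0.089 in the interaction, shifted the median of all genes by up to -0.16, in the interaction, and turned Rpl8 in biopsy (-0.024), Rps27l in CMF (0.070), Rpl10a in acid (-0.0016) and Rps27 in biopsy against CMF_acid (0.20). The cause was not tested. Quantile normalization shifted an array's gene median by up to 0.30. The large minus small difference became 0.0043 with the software signal and -0.0098 with the mean of probe sets in biopsy against CMF_acid, -0.0027 with that mean in CMF_acid, and 0.011 with quantile normalization in the interaction. That mean turned Rps18 in CMF_acid (0.016) and in biopsy against CMF_acid (-0.029), and put the untreated level at 14.73, against 12.16 with the software signal and 15.41 in the main values.

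With each array left out, the large minus small difference ran from -0.0045 to 0.025 in biopsy, -0.00037 to 0.021 in CMF, -0.015 to 0.016 in acid, 0.0017 to 0.024 in CMF_acid, -0.054 to -0.0014 in biopsy against CMF_acid and -0.052 to 0.018 in the interaction. Some members turned: Rpl13a in acid (-0.00015 to 0.044, lowest without acid replicate 4) and Rpl10a in acid (-0.0083 to 0.032, and -0.0053 without untreated replicate 4). Rps18 in CMF_acid ran from -0.14 to 0.015, and in biopsy against CMF_acid Rplp2 ran from -0.017 to 0.097 and Rps18 from -0.019 to 0.13, each turning without CMF_acid replicate 5. Among probe sets chosen after seeing the data, 70 of 93 single-symbol sets and 61 of 75 shared sets were lower after biopsy. Members near the top of the scale, and probe sets that cross-hybridise, limit what the signals resolve.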
